A study of Ovis aries with 6 samples.

Results

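The immune cells of the skin were examined through the transcripts of 39 marker genes in SM (Super Merino) sheep, a fine-wool breed, and STH (Small Tail Han) sheep, a coarse-wool breed. The genes were taken by their symbols from a list that was chosen with earlier results of these data known. They comprise 5 pan-leukocyte, 14 T cell, 3 B cell, 6 macrophage and 4 mast cell markers and 7 markers of antigen presentation and dendritic cells. Of these, 37 were found by name among the 28394 genes of the files, and ZAP70 and CD163 were not analysed here. A filter of at least 10 counts in at least 3 sheep was passed by 36 of them and by 15320 genes in all, and the B cell gene CD79B did not pass.

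RNA-seq of polyA RNA was carried out on skin from behind the shoulder blade of 3 SM ewes (sheep 128, 30034 and 30126) and 3 STH ewes (XW3, XW5 and XW8), with 1 library for each animal. The labels give the age of all 6 sheep as 9 months, although the methods of the study give a younger age, and no treatment is named. The ewes were kept on the same farm and feed. The skin was taken whole, so that epidermis, dermis, follicles and vessels with their blood were sequenced together, and in such bulk samples fewer cells of a type and less RNA per cell cannot be told apart.

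Healthy skin holds several kinds of resident immune cells. Langerhans cells lie in the epidermis and dendritic cells in the dermis, where they take up antigen and present it to T cells. Macrophages clear debris, mast cells sit along vessels and nerves and release histamine and proteases, and T cells patrol both layers, while B cells are scarce. The T cell receptor signals through the CD3 chains, and CD4 and CD8 mark the main subsets of conventional T cells. In ruminants a large share of T cells carries a gamma delta receptor, and many of those lack both CD4 and CD8.

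Between 28870583 and 44645091 reads were counted for each library, and the median total was 42616110 for SM and 30868650 for STH sheep. A gene with 3 counts is at 0.0672 to 0.104 CPM (counts scaled to a common library size by TMM), a floor that covers counting error only. Sheep 30126 stood apart, with the highest value of the 6 sheep for 33.43% of all tested genes and the lowest for 31.47%. The summed level of 11 keratinocyte, fibroblast and endothelial genes was 17474 to 21213 CPM in SM and 19219 to 23234 CPM in STH sheep, so that transcripts of the structural cells of skin were abundant in every library. Of the 4 red blood cell genes found, HBM and AHSP were each at 0 in 5 of 6 sheep, ALAS2 was at 0 to 0.259 CPM and SLC4A1 at 4.34 to 6.42 CPM in all sheep. Each log2 fold change is that of SM against STH, positive where the gene is higher in SM sheep. The fold changes come from edgeR's quasi-likelihood test, with Benjamini-Hochberg adjustment over all tested genes, and the thresholds were 0.05 for the adjusted p and 0.585 for the size of the log2 fold change.

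The levels of the markers were compared with each other as RPKM, which accounts for gene length. CD74, the invariant chain of MHC class II molecules, was by far the most abundant, with a mean over the 6 sheep of 361.75 RPKM, above 98.93% of the tested genes. The macrophage growth factor receptor CSF1R followed at 16.4 RPKM, then the actin regulator CORO1A at 12.2 RPKM and the lysosomal protein CD68 at 10.3 RPKM. The monocyte receptor CD14 was at 9.50 RPKM and the chemokine receptor CXCR4 at 9.43 RPKM. From CSF1R to CXCR4 the ranges of neighbouring genes over the 6 sheep overlapped, so that their order is not fixed by these data.

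Markers of lymphocytes and mast cells were lower. Among T cell genes, CD3E reached 5.64 RPKM on average and CD3G and CD3D 2.75 and 2.73 RPKM. CD8A and CD4 were at 0.549 and 0.228 RPKM, well below the CD3 genes, and CCR7 and CD28 at 0.115 and 0.102 RPKM. The mast cell genes lay between 0.271 RPKM for HDC and 0.932 RPKM for FCER1A, and CD79B was last with 0.0327 RPKM. The 5 lowest markers were MS4A1, CCR7, CD28, CD80 and CD79B, which belong to the B cell, T cell and antigen presentation classes.

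**Figure D1:**
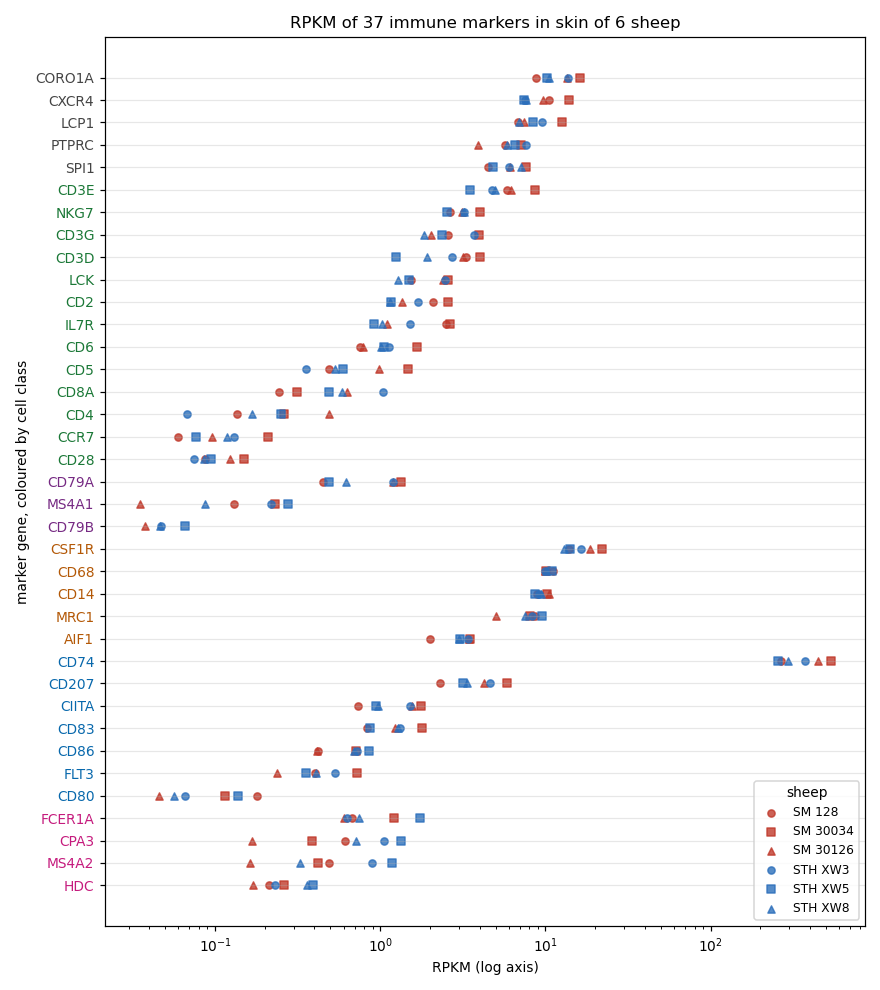
RPKM on a log axis (horizontal) of the 37 markers (vertical), grouped by cell class and ordered by mean level within it, with 1 point for each of the 6 sheep; red points are SM and blue points STH sheep, and values of 0 (CD79B in SM sheep 128 and 30034) are not drawn. CD74 lies far to the right of all other markers, and in most genes the points of both breeds overlap.

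None of the 36 tested markers passed both thresholds, and neither did any of the 15320 genes tested (0%). Over all genes the adjusted p went down to 0.0606, and among the markers to 0.247. With the likelihood ratio test of edgeR 2.3% of all genes passed, and with DESeq2 2.87%, and in both of these tests the markers that passed were again 0. At an unadjusted p under 0.05, 4 markers were higher in SM sheep, 11.1% of those tested beside 7.21% of all genes, and 1 was higher in STH sheep, 2.78% beside 10.8% of all genes. In 3 markers every SM sheep lay above every STH sheep (8.33%, beside 12.3% of all genes), and in 2 every STH sheep lay above every SM sheep (5.56%, beside 13.3%). The first of these shares was above that of all genes and the other 3 were below it.

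The fitted difference was positive in 23 and negative in 13 of the 36 markers, beside 51.39% positive among all tested genes. Their median log2 fold change was 0.09, beside 0.018 over all tested genes, and it was not stable, since it became -0.22 without SM sheep 30034. By class the median was 0.44 for T cell, 0.10 for antigen presentation and dendritic cell, 0.06 for pan-leukocyte, -0.05 for macrophage, -0.13 for B cell and -0.94 for mast cell markers. T cell and mast cell markers thus lay on opposite sides of 0, and the difference between the lists was not tested.

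**Figure D2:**
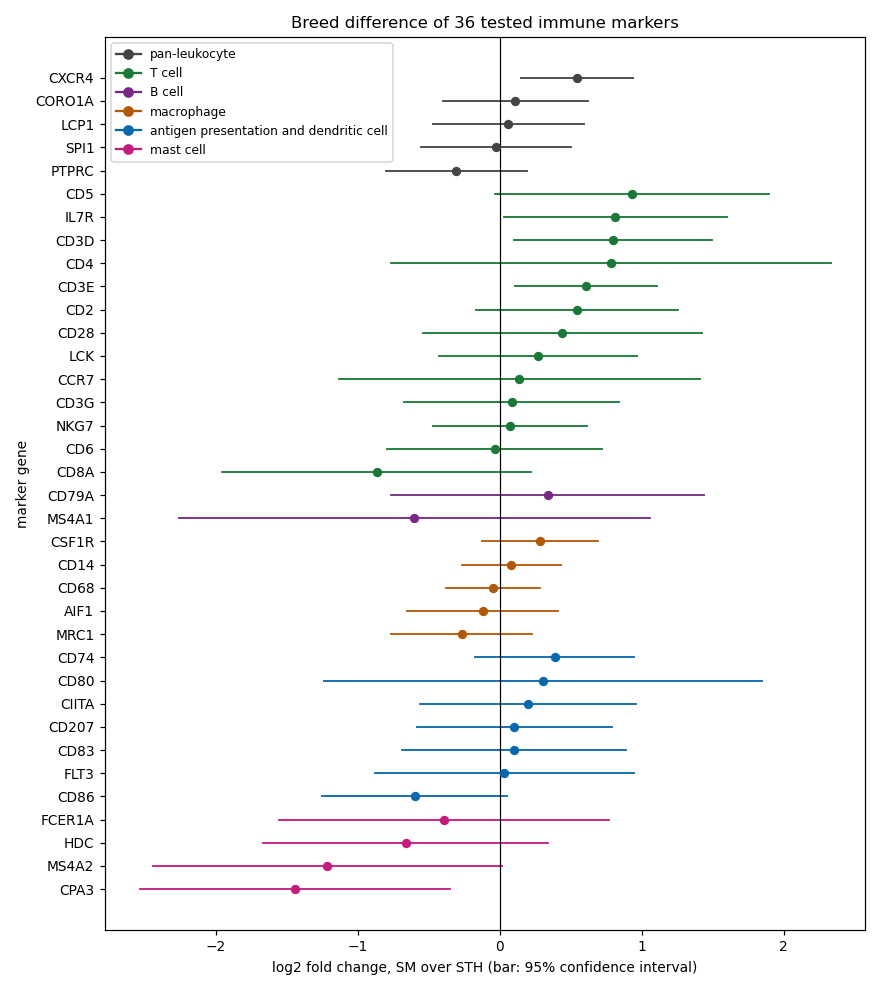
Log2 fold change of SM over STH (horizontal) for the 36 tested markers (vertical), grouped and coloured by cell class, with bars for the 95% confidence interval from the quasi-likelihood fit. The bars of CXCR4, IL7R, CD3D and CD3E lie above 0 and that of CPA3 below 0, and 11 of 13 T cell points are positive while all 4 mast cell points are negative.

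A single SM animal carried many of the highest values. Sheep 30034 had the highest CPM of all 6 sheep in 22 of the 37 markers (59.46%), against 10.01% of all tested genes, and the lowest in 0 of them. It was highest in 11 of 13 T cell, 4 of 5 pan-leukocyte and 5 of 7 antigen presentation and dendritic cell markers, but in 1 of 5 macrophage and 0 of 4 mast cell markers. Sheep 128 was the lowest in 12 markers (32.43%, against 11.76% of all tested genes). Sheep 30126 was the lowest in 11 (29.73%), close to its share of all tested genes. The mean log2 CPM over all markers was 2.28, 2.79 and 2.30 in sheep 128, 30034 and 30126, and 2.60, 2.51 and 2.38 in XW3, XW5 and XW8. Its SD was 0.29 in SM and 0.11 in STH sheep, a difference in spread that was not tested.

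**Figure D3:**
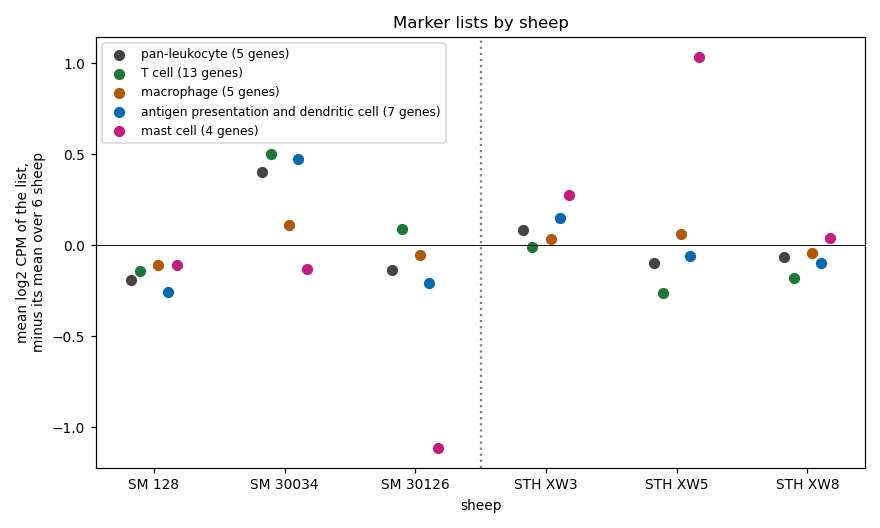
Mean log2 CPM of each marker list minus its own mean over the 6 sheep (vertical) in each sheep (horizontal, SM left and STH right of the dotted line), 1 coloured point for each list; the B cell list is left out because of its low counts. Sheep 30034 stands high in the pan-leukocyte, T cell and dendritic cell lists, and mast cell markers are lowest in SM sheep 30126 and highest in STH sheep XW5.

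The pan-leukocyte genes gave no common direction. PTPRC encodes CD45, the phosphatase on all leukocytes, and was at 43.3, 51.6 and 28.6 CPM in SM sheep 128, 30034 and 30126, against 56.9, 50.7 and 45.1 CPM in the STH animals XW3, XW5 and XW8. The breeds overlapped, with a log2 fold change of -0.31 (SE 0.22, 95% confidence interval -0.80 to 0.19, adjusted p = 0.434), and it was -0.51 without sheep 30034 and -0.0865 without sheep 30126. The actin-bundling protein LCP1, CORO1A and the myeloid transcription factor SPI1 had log2 fold changes of 0.06, 0.11 and -0.02. For SPI1 the sign turned positive with upper quartile normalization and with RPKM.

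CXCR4, the receptor that draws leukocytes toward CXCL12, had the largest fold change of this class. Whether it differed from the other members was not tested. The gene occupies positions 173627164 to 173630661 of chromosome 2 (Oar_v4.0, plus strand) and overlaps no other gene. It measured 22.9, 29.1 and 20.4 CPM in SM and 16.1, 16.5 and 17.0 CPM in STH sheep. Every SM sheep was above every STH sheep, and the STH values were nearly equal. The log2 fold change was 0.55 (SE 0.17, 95% confidence interval 0.15 to 0.94), with an unadjusted p of 0.0124 and an adjusted p of 0.247 in the quasi-likelihood test, and it was 0.38 without sheep 30034. Its ligand CXCL12 had a log2 fold change of 0.08.

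The fold changes of the T cell markers were positive in 11 of the 13 tested (beside 51.39% of all tested genes), and at an unadjusted p under 0.05 the number higher in SM sheep was 3 (beside 7.21%). The genes of the CD3 chains are neighbours on chromosome 15 of Oar_v4.0, with CD3E from 28465486 to 28476100 on the plus strand, CD3D from 28480645 to 28485047 on the minus strand and CD3G from 28486481 to 28498431 on the plus strand, and none of them overlaps another gene. CD3E was at 11.3, 15.8 and 11.5 CPM in SM and 8.95, 6.85 and 9.60 CPM in STH sheep. CD3D was at 6.41, 7.39 and 5.94 CPM in SM and 5.19, 2.44 and 3.77 CPM in STH sheep. In both genes the lowest SM value was above the highest STH value.

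The log2 fold change was 0.61 for CD3E (SE 0.22, 95% confidence interval 0.10 to 1.11, unadjusted p = 0.0232, adjusted p = 0.255) and 0.80 for CD3D (SE 0.31, 95% confidence interval 0.10 to 1.49, unadjusted p = 0.0293, adjusted p = 0.256) by the quasi-likelihood test. CD3G did not follow them. It was at 5.72, 8.39 and 4.33 CPM in SM and 7.98, 5.35 and 4.10 CPM in STH sheep, with full overlap and a log2 fold change of 0.08 (SE 0.33). Whether CD3G differed from CD3E or CD3D in its breed difference was not tested.

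IL7R, the receptor for the survival factor IL7, was at 16.8, 17.1 and 7.16 CPM in SM and 10.1, 6.28 and 7.05 CPM in STH sheep. SM sheep 128 and 30034 were high and sheep 30126 lay within the STH range. The log2 fold change was 0.81 (SE 0.34, 95% confidence interval 0.03 to 1.60, unadjusted p = 0.0436, adjusted p = 0.270 by the quasi-likelihood test). When each sheep was left out in turn, the unadjusted p stayed under 0.05 in 5 of 6 fits for CXCR4, 4 of 6 for CD3E, 3 of 6 for CD3D and 2 of 6 for IL7R.

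The co-receptor genes CD8A and CD4 had fold changes of opposite sign, each with a confidence interval that includes 0. Whether they differed from each other was not tested. CD8A, which pairs with MHC class I, was at 0.727, 0.886 and 1.78 CPM in SM and 3.02, 1.47 and 1.75 CPM in STH sheep, and SM sheep 30126 lay above XW5 and XW8. Its log2 fold change was -0.87 (SE 0.48, 95% confidence interval -1.95 to 0.22, adjusted p = 0.334), and it was -1.34 without sheep 30126 and -0.50 without sheep XW3. CD4, which pairs with MHC class II, was counted 8, 22 and 36 times in SM and 4, 21 and 10 times in STH sheep, equal to 0.264, 0.487 and 0.917 CPM and 0.130, 0.498 and 0.331 CPM. Such counts gave a wide interval, with a log2 fold change of 0.78 (SE 0.68, 95% confidence interval -0.77 to 2.33, adjusted p = 0.513) that was 0.24 without sheep 30126.

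The other T cell markers did not reach an unadjusted p of 0.05. The scavenger receptor family members CD5 and CD6 had log2 fold changes of 0.93 and -0.04. CD5 was at 1.92, 5.45 and 3.67 CPM in SM and 1.36, 2.35 and 2.09 CPM in STH sheep, so that only sheep 128 overlapped with the STH sheep, and its difference was 0.52 without sheep 30034. The adhesion molecule CD2 had a log2 fold change of 0.55, the co-stimulatory receptor CD28 0.44, the kinase LCK 0.27, the lymph node homing receptor CCR7 0.14 and the granule protein NKG7 0.07. CD6 and NKG7 changed sign when the trend of each library on gene length was removed.

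**Figure D4:**
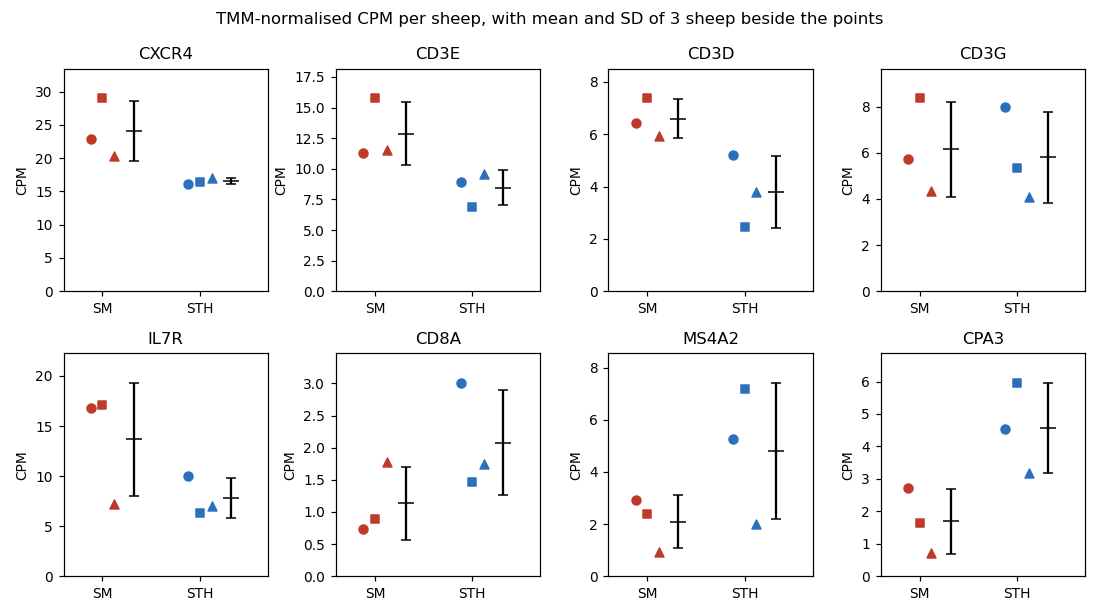
TMM-normalised CPM (vertical, from 0) in SM (red) and STH (blue) sheep for 8 markers, 1 symbol for each animal (circle, square and triangle for 128, 30034 and 30126 and for XW3, XW5 and XW8), with the mean and SD of 3 sheep as a black bar beside the points. The breeds do not overlap in CXCR4, CD3E, CD3D and CPA3 and overlap in CD3G, IL7R, CD8A and MS4A2.

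Since sheep 30034 was high in both T cell and pan-leukocyte genes, the markers were also expressed relative to PTPRC, LCP1, CORO1A and SPI1. The remaining pan-leukocyte marker CXCR4, whose log2 fold change was 0.55, was left out of this reference. The measure was the mean log2(CPM + 0.05) of a list minus that of the 4 reference genes. This measure, chosen after the values were seen, depends on the scaling of the library only through the offset of 0.05, which weighs most in low genes. For the 13 T cell markers it was -3.38, -3.37 and -3.24 for 128, 30034 and 30126 of the SM breed, against -3.72, -3.72 and -3.68 for XW3, XW5 and XW8 of the STH breed. The means were -3.33 ± 0.08 (SD, n = 3) for SM and -3.71 ± 0.02 (SD, n = 3) for STH sheep, a difference of 0.38 on the log2 scale with no overlap.

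The breeds also did not overlap when any of the 4 reference genes was left out, with differences of 0.29 to 0.43, nor when CD3D, CD3E and IL7R were left out of the T cell list, with a difference of 0.25. A reference that also holds CXCR4 was not tried. CXCR4 was itself 0.60 higher in SM sheep on this relative scale, so that adding it would lower the T cell difference. After removal of the length trend the means were -3.36 ± 0.03 in SM and -3.67 ± 0.03 in STH sheep. Taken gene by gene, 7 of 32 markers (21.9%) had every SM sheep above every STH sheep on this relative scale, against 5.53% of all tested genes, and 1 marker (3.12%) had the reverse, against 3.02%. The 7 were CXCR4, CD3D, CD3E, CD2, CD28, CSF1R and CD74, and the 1 in the other direction was CD86. These 32 markers share the same reference, in which PTPRC was itself lower on average in SM sheep, so that they are not independent of each other. On the CPM scale the shares were 8.33% of the markers beside 12.3% of all genes, and 5.56% beside 13.3% for the reverse. Subtracting a leukocyte reference can act differently on immune markers and on other genes. The contrast with all genes may thus be built into the measure, and no conclusion is drawn from it.

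**Figure D5:**
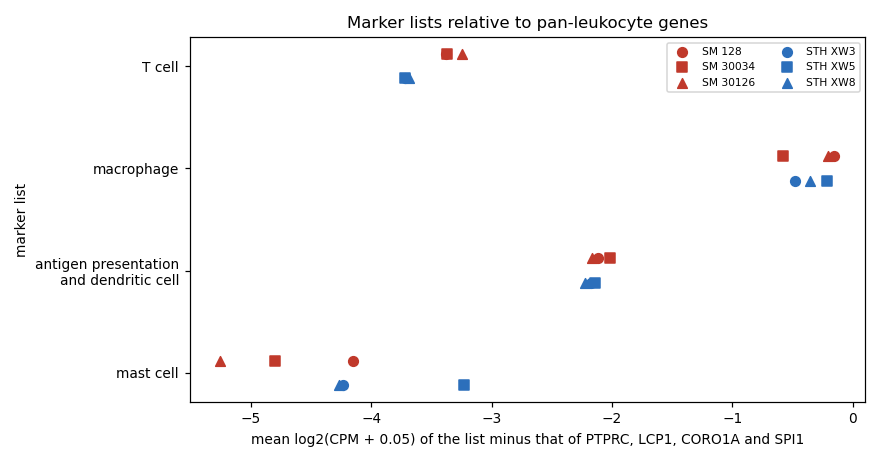
Mean log2(CPM + 0.05) of 4 marker lists minus that of PTPRC, LCP1, CORO1A and SPI1 (horizontal), with SM (red) above STH (blue) sheep in each list and 1 symbol for each animal. The T cell list lies at -3.38 to -3.24 in SM and -3.72 to -3.68 in STH sheep with no overlap, while both breeds overlap in the other lists.

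B cell markers were few. CD79A, a signalling chain of the B cell receptor, was at 1.22, 3.45 and 3.16 CPM in SM and 3.18, 1.35 and 1.72 CPM in STH sheep, with a log2 fold change of 0.34 (SE 0.48, 95% confidence interval -0.76 to 1.44, adjusted p = 0.695). Its partner CD79B had 0, 0 and 4 counts in SM and 4, 8 and 4 counts in STH sheep, close to the floor of 3 counts, so that no fold is given. MS4A1, which encodes CD20, had between 4 and 36 counts and a log2 fold change of -0.60 (SE 0.73). No breed difference was detected in the 2 B cell genes tested, and what limited detection was not tested.

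The macrophage markers varied least between the breeds. CSF1R was at 80.9, 123 and 105 CPM in SM and 93.6, 83.6 and 76.4 CPM in STH sheep, with a log2 fold change of 0.28 (SE 0.18, 95% confidence interval -0.12 to 0.69, adjusted p = 0.384), and it was 0.12 without sheep 30034 and 0.43 without sheep 128. CD14 and CD68 were nearly level in all 6 sheep, at 14.4 to 16.6 CPM and 24.8 to 29.1 CPM, and their log2 fold changes of 0.08 and -0.05 had 95% confidence intervals of -0.27 to 0.43 and -0.38 to 0.28. The mannose receptor MRC1 and the cytoskeletal protein AIF1 had log2 fold changes of -0.27 and -0.12. AIF1 overlaps NCR3 and LST1 in the annotation, as CD6 overlaps SLC15A3 and MS4A2 overlaps LOC105613232, and whether the counting used strand is not stated.

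In antigen presentation, CD74 was at 623, 1193 and 1016 CPM in SM and 850, 613 and 701 CPM in STH sheep. SM sheep 30034 and 30126 were the highest and sheep 128 was among the lowest, and the log2 fold change was 0.39 (SE 0.25, 95% confidence interval -0.17 to 0.95, adjusted p = 0.386), with values of 0.17 without sheep 30034 and 0.61 without sheep 128. CIITA, the master activator of MHC class II genes, had a log2 fold change of 0.20. Langerhans cells were followed by CD207, the langerin gene, which was at 9.95, 24.0 and 17.6 CPM in SM and 19.5, 14.0 and 14.6 CPM in STH sheep. The SM values enclosed the STH values, with a log2 fold change of 0.10 (SE 0.30, 95% confidence interval -0.58 to 0.79, adjusted p = 0.858).

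CD86, a ligand of CD28 on activated antigen presenting cells, was at 3.07, 4.98 and 2.90 CPM in SM and 5.19, 6.33 and 5.13 CPM in STH sheep. Every STH sheep lay above every SM sheep, by a narrow margin to sheep 30034, and on the RPKM scale the breeds overlapped. The log2 fold change was -0.60 (SE 0.29, 95% confidence interval -1.25 to 0.05, unadjusted p = 0.0676, adjusted p = 0.296 by the quasi-likelihood test), and it was -0.90 without sheep 30034. Its relative CD80 had 7 to 24 counts and a log2 fold change of 0.30 (SE 0.68). The maturation marker CD83 and the growth factor receptor FLT3 had log2 fold changes of 0.10 and 0.03.

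All 4 mast cell markers had negative fold changes. CPA3, the carboxypeptidase of mast cell granules on chromosome 1 of Oar_v4.0 (237196808 to 237230547, minus strand), was at 2.71, 1.64 and 0.713 CPM in SM and 4.54, 5.97 and 3.18 CPM in STH sheep. Every STH sheep was above every SM sheep. The log2 fold change was -1.45 (SE 0.48, 95% confidence interval -2.54 to -0.35, unadjusted p = 0.0153, adjusted p = 0.247 by the quasi-likelihood test). Without SM sheep 128 it was -1.95 with an adjusted p of 0.0405 by the same test and passed both thresholds, at a setting in which 1175 genes did so. Without STH sheep XW5 it was -1.20 with an unadjusted p of 0.0606, and without SM sheep 30126 it was -1.06. Over all alternatives the adjusted p ranged from 0.0405 to 0.627.

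MS4A2, the beta chain of the high-affinity IgE receptor, was at 2.91, 2.39 and 0.943 CPM in SM and 5.25, 7.18 and 1.99 CPM in STH sheep. Sheep XW8 lay within the SM range, and the log2 fold change was -1.21 (SE 0.54, 95% confidence interval -2.44 to 0.01, adjusted p = 0.279). That difference was -0.80 without sheep XW5 and -1.58 without sheep XW8. FCER1A, the alpha chain of the same receptor, was at 1.06, 1.82 and 0.917 CPM in SM and 0.973, 2.80 and 1.19 CPM in STH sheep. Its log2 fold change of -0.39 (SE 0.51, 95% confidence interval -1.55 to 0.77, adjusted p = 0.665) became 0.23 without sheep XW5. HDC, the enzyme that makes histamine, had 22 to 58 counts and a log2 fold change of -0.66 (SE 0.44). In each of these 4 genes XW5 was the highest and 30126 the lowest of the 6 sheep, and relative to the 4 pan-leukocyte genes the mast cell list overlapped between the breeds, at -4.74 ± 0.55 (SD, n = 3) for SM and -3.91 ± 0.59 (SD, n = 3) for STH sheep.

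Further genes of the same cell types, of other skin cells and of their ligands were read from longer lists. Each list held 4 to 24 tested genes. In these lists 0 genes passed both thresholds in the quasi-likelihood test (beside 0% of all genes). In the likelihood ratio test 4 passed (beside 2.3%) and in DESeq2 4 (beside 2.87%), in each case the same genes. They were CLEC4F of 18 dendritic and Langerhans cell genes, CSF3R of 10 neutrophil genes, and IL33 and KITLG of 22 ligands. In both tests 0 passed of 24 T and NK cell, 12 B and plasma cell and 22 macrophage and monocyte genes. Likewise 0 passed of 10 mast cell and basophil, 11 MHC class II, 11 reference and 4 red cell and platelet genes. Whether these counts differ from the shares of all genes was not tested. Without SM sheep 128 the quasi-likelihood test passed 5, beside 1175 of all 15203 genes tested. The 5 were CLEC4F, CSF3R, IL33, LTF and CDH5. Among 10 further mast cell and basophil genes, 3 were higher in STH sheep at an unadjusted p under 0.05 (beside 10.8% of all genes) and 0 in SM sheep, and in each of the 3 every STH sheep lay above every SM sheep (beside 13.3%). They were the prostaglandin D2 synthase HPGDS (log2 fold change -2.04, SE 0.66), the IL33 receptor IL1RL1 (-0.91, SE 0.38) and the G protein regulator RGS13 (-1.53, SE 0.64). RGS13 had only 8, 10 and 4 counts in SM and 10, 22 and 26 counts in STH sheep, so that the size of its fold is uncertain. HPGDS was at 0.661, 0.664 and 0.459 CPM in SM and 1.30, 5.07 and 0.927 CPM in STH sheep, and its log2 fold change was -0.90 without sheep XW5. Other established mast cell genes had smaller differences. The tryptase gene TPSB2 was at 24.8, 17.0 and 14.5 CPM in SM and 21.9, 16.0 and 12.3 CPM in STH sheep (log2 fold change 0.16, SE 0.27), and the stem cell factor receptor KIT, which melanocytes also express, had a log2 fold change of -0.26 (SE 0.28).

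Of 24 further T and NK cell genes tested, 1 was higher in each breed at an unadjusted p under 0.05 (beside 7.21% of all genes for SM and 10.8% for STH sheep). These were CD7 in SM (1.12, SE 0.48) and the phosphatase PTPN22 in STH sheep (-1.25, SE 0.47). CD247, the zeta chain of the T cell receptor complex, was at 13.5, 14.1 and 10.6 CPM in SM and 9.86, 9.78 and 10.5 CPM in STH sheep, without overlap and with a log2 fold change of 0.34 (SE 0.18, 95% confidence interval -0.07 to 0.76). The other chain of CD8, CD8B, had a log2 fold change of -0.10 (SE 0.43). Of 12 further B and plasma cell genes 0 had an unadjusted p under 0.05 in either direction.

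Of 22 further macrophage and monocyte genes, 3 were higher in SM sheep at an unadjusted p under 0.05 (beside 7.21% of all genes) and 0 in STH sheep: the sialic acid receptor SIGLEC1 (1.28, SE 0.47), MS4A7 (0.74, SE 0.31) and the complement gene C1QB (0.42, SE 0.18), and in all 3 the breeds overlapped. Without sheep 30034 their log2 fold changes were 0.89, 0.41 and 0.27. Of 18 further dendritic and Langerhans cell genes, 2 were higher in each breed at an unadjusted p under 0.05. Among all genes 7.21% were higher in SM and 10.8% in STH sheep at that p. CLEC4F, a lectin, was at 1.29, 4.41 and 1.66 CPM in SM and 0.454, 0.190 and 0.0993 CPM in STH sheep, with a log2 fold change of 3.31 (SE 0.70, adjusted p = 0.1996 by the quasi-likelihood test, 0.00097 by the likelihood ratio test and 0.00053 by DESeq2, with a range of 0.00053 to 0.607 over the alternatives), and the chemokine receptor CCR6 had 1.03 (SE 0.35). CLEC4F was counted only 14, 8 and 3 times in XW3, XW5 and XW8, the last at the floor of 3 counts. The size of its fold is thus uncertain. CD101 and the lectin CLEC4A had -1.17 (SE 0.42) and -0.64 (SE 0.24), and CD101 was at -0.70 without sheep XW5. In these 4 genes the breeds did not overlap (beside 12.3% of all genes with SM above and 13.3% with STH above).

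Of 10 neutrophil genes tested, 2 were higher in SM sheep at an unadjusted p under 0.05 (beside 7.21% of all genes), both without overlap (beside 12.3%). CSF3R, the receptor for granulocyte colony-stimulating factor, was at 6.12, 4.69 and 3.31 CPM in SM and 1.23, 1.61 and 1.13 CPM in STH sheep, with a log2 fold change of 1.82 (SE 0.34, adjusted p = 0.159 by the quasi-likelihood test, 0.00075 by the likelihood ratio test and 0.00024 by DESeq2, with a range of 0.00024 to 0.487 over the alternatives). The iron-binding protein LTF, which gland epithelium also makes, had 1.57 (SE 0.50). The granule enzyme gene MPO was at 0 in 3 of 6 sheep and below 0.1 CPM in the others. Of 11 genes of the MHC class II machinery 0 had an unadjusted p under 0.05.

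The list of ligands holds growth factors, chemokines and cytokines that act on immune cells, some of them through receptors outside the 39 markers. Of 22 tested, 4 were higher in STH sheep (beside 10.8% of all genes) and 2 in SM sheep (beside 7.21%) at an unadjusted p under 0.05. IL33, the alarmin that acts on mast cells through IL1RL1, was at 24.6, 20.5 and 15.0 CPM in SM and 46.7, 45.9 and 36.2 CPM in STH sheep, with a log2 fold change of -1.10 (SE 0.21, adjusted p = 0.159 by the quasi-likelihood test, 0.00087 by the likelihood ratio test and 0.00068 by DESeq2, with a range of 0.00068 to 0.503 over the alternatives) and no overlap. KITLG, the mast cell growth factor also called stem cell factor, was at 49.9, 51.2 and 25.1 CPM in SM and 64.5, 95.5 and 90.7 CPM in STH sheep, with a log2 fold change of -0.99 (SE 0.28, adjusted p = 0.243 by the quasi-likelihood test, 0.0426 by the likelihood ratio test and 0.0338 by DESeq2, with a range of 0.0338 to 0.627 over the alternatives) and no overlap. Both had an unadjusted p under 0.05 in all 6 fits that left out a sheep. The T cell attracting chemokine CCL27 had a log2 fold change of -0.50 (SE 0.21), and IL34, which maintains Langerhans cells through CSF1R, had -0.41 (SE 0.17).

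The ligands higher in SM sheep were CX3CL1 (0.39, SE 0.14), which binds T cells and monocytes, and CCL19 (1.17, SE 0.48), the ligand of CCR7, whose difference was 0.49 without sheep 30034. CSF1, the other ligand of CSF1R, had a log2 fold change of 0.11. Some genes of other skin cells also differed between the breeds by the unadjusted p, and their part in the immune marker values was not tested. Of 11 reference genes, 3 were higher in SM (beside 7.21% of all genes) and 1 in STH sheep (beside 10.8%) at an unadjusted p under 0.05. They were the pericyte gene PDGFRB (0.48, SE 0.14) and the endothelial genes VWF (0.66, SE 0.21) and CDH5 (0.68, SE 0.24) in SM sheep. In STH sheep it was the fibroblast gene DCN (-0.35, SE 0.15). Of 4 red cell and platelet genes tested, 1 was higher in SM sheep at that p (beside 7.21% of all genes), the platelet gene GP1BA (1.13, SE 0.44).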

How the data were processed

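Skin libraries of 3 SM and 3 STH ewes were mapped by the authors to Oar_v4.0 in CLC Genomics Workbench 9.0.1. The total counts deposited by the authors are whole numbers without normalization, and the deposited RPKM values are scaled to gene length and library size. The supplement of the study lists counted fragments by exon, exon-exon, intron and intergenic class. Which of them enter the total counts of a gene, and whether by strand, is not given in the sources used here. Of counts from 1 to 9, 77.86% were even, against 51.41% from 100 to 999.

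The 15320 genes reaching 10 counts in 3 or more animals were tested with edgeR 4.0.16 in R 4.3.3 (TMM, quasi-likelihood test, default settings, breed as the only term), and CPM are TMM-normalised. Values of different genes were compared as RPKM. P-values reflect the spread between animals. An exact permutation test of 3 sheep against 3 cannot go below p = 0.1. The fits were tested on simulated counts. Alternatives were DESeq2 1.42.0, edgeR's likelihood ratio test, other scalings and filters, limma 3.58.1 on log2(RPKM + 0.1), removal of the length trend, and each sheep left out in turn. Halved counts and the newer dispersion estimate were added after seeing the data.

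The members and lists were chosen with earlier results of these data known. All members are named, with full statistics for those with an unadjusted p under 0.05, no overlap or a lineage-defining role, and from each other list at most 3 genes in each direction with the smallest p under 0.05. Names are those of the files, and all 37 identifiers matched the RefSeq table of ARS-UI_Ramb_v3.0, 36 with the same symbol. CD247, CD8B, UBASH3A, SH2D1A, TPSB2, KIT, CXCL12, CSF1, IL34 and MPO were picked after their values were seen. C1QB and MS4A7 carry other symbols there. The deposited TPM and CPM columns were not used. The sheep labels pair no SM with an STH animal.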

Additional observations from a re-analysis of the deposited data

How the results depend on the processing

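The number of markers past both thresholds was 0 under every test, scaling and filter tried and between 0 and 1 when a sheep was left out, the 1 being CPA3 without SM sheep 128. Leaving out a sheep gave 0 to 6 markers higher in SM and 0 to 2 higher in STH sheep at an unadjusted p under 0.05, 3 to 9 and 2 to 6 without overlap (the 9 without sheep 128, the 6 without sheep 30034), and a median log2 fold change of -0.22 to 0.21. The 9 and the 6 were each of 35 markers tested. Beside the 9, 24.6% of all genes had every SM sheep above, and beside the 6, 16.9% had every STH sheep above. At an unadjusted p under 0.05 by the quasi-likelihood test, these fits had 3.13% to 12.7% of all genes higher in SM and 4.21% to 17.6% higher in STH sheep. Without SM sheep 30034 there were 0 markers higher in SM sheep at that p, and without STH sheep XW5 there was 1, CXCR4. Markers higher in STH sheep numbered 2 in place of 1 with DESeq2, the likelihood ratio test, no count filter, the length trend removed and the newer dispersion estimate, each time through the addition of MS4A2, and the markers with every STH sheep above every SM sheep numbered 1 in place of 2 with the length trend removed and with RPKM at either pseudocount. At that p CD5 joined the markers higher in SM sheep with DESeq2, the likelihood ratio test, no count filter, the length trend removed and the newer dispersion estimate. IL7R was lost from them with the CPM filter, with RPKM at either pseudocount and with halved counts. The causes of these changes were not tested.

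The sign of SPI1 reversed with upper quartile normalization (0.0084) and with RPKM at a pseudocount of 0.1 (0.0052) or 1 (0.0064), that of CD6 (0.0436), NKG7 (-0.0059) and CD14 (-0.0231) with the length trend removed, and that of FLT3 with RPKM at a pseudocount of 0.1 (-0.0225). Leaving out a sheep also turned the sign of 14 markers, over ranges of -0.26 to 0.21 for LCP1, -0.10 to 0.31 for CORO1A, -0.23 to 0.14 for SPI1, -0.22 to 0.38 for CD3G, -0.51 to 0.16 for CD6, -0.51 to 0.44 for CCR7, -0.10 to 0.18 for NKG7, -0.12 to 0.0065 for CD68, -0.25 to 0.0815 for AIF1, -0.0493 to 0.48 for CIITA, -0.22 to 0.32 for CD83, -0.46 to 0.36 for FLT3, -0.23 to 0.38 for CD207 and -0.76 to 0.23 for FCER1A. Over all genes, upper quartile normalization moved the shares at an unadjusted p under 0.05 to 9.38% higher in SM and 9.15% in STH sheep. The median of the B cell markers was -0.60 without a count filter, which adds CD79B, and 0.32 with the CPM filter, which leaves CD79A alone, in place of -0.13. No paired analysis was possible because the sheep labels carry no shared numbers.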
